A study of Homo sapiens with 6 samples.

Results

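The clustered histone genes are the genes of the core histones H2A, H2B, H3 and H4 and the linker histone H1 that sit in the HIST1, HIST2, HIST3 and HIST4 loci. They were chosen by name: a gene symbol of the form HIST1H2BD, with rows described as pseudogenes left out. Of 58302 genes in the table, 90 had such a name, 16 were described as pseudogenes, and 74 remained. The 74 comprise 7 H1, 18 H2A, 19 H2B, 14 H3 and 16 H4 genes. On GRCh38, 58 lie in HIST1 on chromosome 6, in a proximal block of 36 (chr6:25726132-26285638) and a distal block of 22 (chr6:27125897-27893843). A further 12 lie in HIST2 (chr1:149782689-149887916), 3 in HIST3 (chr1:228424845-228460470) and 1, HIST4H4, on chromosome 12. In GENCODE release 29, 70 of the 74 are protein coding and 4 with no description are pseudogenes (HIST2H2BD, HIST1H2APS1, HIST1H1PS2 and HIST1H4PS1).

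RNA was sequenced from PC-3, an established prostate cancer line of human origin, after a lentivirus overexpressing BHLHE22, a basic helix-loop-helix transcription factor (3 libraries), or a blank-vector lentivirus (3 libraries). Both groups therefore carry a lentivirus, and the sources used here give neither the promoter of the transgene nor any selection of clones. The libraries held between 12186723 and 15949537 counts. BHLHE22 itself had 98, 92 and 133 counts in the BHLHE22 libraries, against 1 count in each vector library. The epithelial markers KRT8, KRT18 and EPCAM and the mesenchymal marker VIM averaged at least 24.4 CPM (counts scaled to library size) in either group. KLK3, the gene of prostate-specific antigen, was at 0 in all libraries, as were the blood markers TYROBP, HBB and CD3E. Of 3 fibroblast markers, COL1A1 averaged 47.6 CPM in BHLHE22 cells and 65.9 CPM in vector cells, COL3A1 0.923 and 7.64 CPM in the same order, and PDGFRA 10.3 and 9.27 CPM; their part in the histone results was not tested.

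Clustered histone genes are switched on together as DNA replication begins, when the coactivator NPAT, phosphorylated by CDK2, drives their transcription. Their mature mRNAs have no introns and no poly(A) tail. They end instead just after a conserved stem-loop that the stem-loop binding protein SLBP holds for processing, export and translation. Some of these genes can also yield polyadenylated, sometimes spliced, transcripts that run past the stem-loop, a form described in differentiated and non-dividing cells and in cancer lines. Many replacement histone genes outside the clusters make ordinary polyadenylated mRNA in and out of S phase. The sources used here do not give how RNA was selected before library construction, so which form of histone mRNA the counts hold cannot be told from them.

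The stem-loop is shown because the replication-linked mRNA ends just after it, while a polyadenylated form can hold it and run past it. A 16-base histone stem-loop was found in annotated GENCODE 29 transcripts of 33 of the 74 members, in 6 variants. The search used a fixed pattern and annotated sequence alone, so a transcript model that ends before the stem-loop cannot show it. The other members are therefore not shown to lack a stem-loop. They are given as DNA, 5′ to 3′, with the 4-base loop in capitals. The stem pairs the 6 bases on its left with the 6 on its right.
H2A, H2B and H3 genes, 17 members, among them HIST1H2AE, HIST1H2BE and HIST1H2AC: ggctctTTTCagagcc
H2B and H3 genes, 5 members, among them HIST1H2BD: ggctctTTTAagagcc
HIST1H3E: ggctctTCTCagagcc
HIST1H2AG and HIST2H2BD: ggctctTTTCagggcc
H4 genes, 5 members, among them HIST1H4H and HIST1H4J: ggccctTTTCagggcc
HIST1H4I, HIST2H4A and HIST2H4B: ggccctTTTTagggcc
The stem of the H4 variants differs from that of most H2A, H2B and H3 variants. Of the 17 members of the commonest form 14 were tested for a change in BHLHE22 cells with edgeR; 2 rose and 5 fell, a share near that of all tested genes, of which 49.4% were called.

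The promoters of a gene that rose, a gene that fell and an H4 gene that fell are shown as examples, with promoter elements marked where found. Each runs from 250 bases before the RefSeq start to 50 after it (GRCh38.p14), read on the gene's own strand. Capitals mark every match, on either strand, of TATAAA (the TATA box), CCAAT (the CCAAT box), ATTTGCAT (the motif of the OCT1 factor) and CATATG (a bHLH-type E-box).
HIST1H2AE, chr6:26216671-26216970, plus strand: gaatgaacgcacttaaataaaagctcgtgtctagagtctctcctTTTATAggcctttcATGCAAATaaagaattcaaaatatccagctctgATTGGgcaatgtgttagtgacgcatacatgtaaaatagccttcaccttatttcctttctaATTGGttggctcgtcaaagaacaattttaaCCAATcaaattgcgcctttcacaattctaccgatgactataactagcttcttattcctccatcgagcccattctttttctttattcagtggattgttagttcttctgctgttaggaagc
HIST1H2BD, chr6:26157871-26158170, plus strand: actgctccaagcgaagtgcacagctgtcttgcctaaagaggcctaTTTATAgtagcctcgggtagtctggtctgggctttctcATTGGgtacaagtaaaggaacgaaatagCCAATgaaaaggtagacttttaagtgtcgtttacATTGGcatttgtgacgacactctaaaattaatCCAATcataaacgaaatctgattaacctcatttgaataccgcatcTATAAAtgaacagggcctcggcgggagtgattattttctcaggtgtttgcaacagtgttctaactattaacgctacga
HIST1H4H, chr6:26285485-26285784, minus strand: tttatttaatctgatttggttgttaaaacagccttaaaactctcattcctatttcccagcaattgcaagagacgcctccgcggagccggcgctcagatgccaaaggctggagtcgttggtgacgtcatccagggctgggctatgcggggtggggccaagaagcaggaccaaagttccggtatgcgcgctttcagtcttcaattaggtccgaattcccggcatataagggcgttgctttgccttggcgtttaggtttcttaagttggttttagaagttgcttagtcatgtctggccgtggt
The first holds 5 matches, the second 6 and the third 0. RefSeq promoters were matched for 64 of the 74 members. Of these, 67.2% held TATAAA, against 11.5% of all 35116 promoters in the table, and 84.4% held CCAAT, against 34.6%. CCAAT was present in every matched H1, H2A, H2B and H3 promoter but in 3 of 13 H4 promoters. ATTTGCAT stood in 11 of 16 H2A and 14 of 18 H2B promoters, and in 1.77% of all promoters. CATATG was in 0 of the 64, against 3.04% of all promoters. Among members that rose in BHLHE22 libraries, 5 of 5 had TATAAA and 3 of 5 had ATTTGCAT; among members that fell, 6 of 11 had TATAAA and 2 of 11 had ATTTGCAT. Among members not called, 12 of 22 had TATAAA and 10 of 22 had ATTTGCAT, which was found in H2A and H2B promoters and in no matched H1, H3 or H4 promoter. These matches describe letters in a window and say nothing about binding. Matched windows of H2A and H2B genes that stand head to head overlap, so the same match can be counted for both genes. In HIST1H2AE the only TATAAA match is on the minus strand, the strand of its head-to-head neighbour HIST1H2BG. The tallies therefore do not separate a gene's own elements from those of its neighbour.

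The clustered histone genes moved in both directions in BHLHE22 cells. The filter on low counts kept 40 of the 74 members. Of the 34 others, 5 had no count in any library, and none had more than 53 counts over the 6 libraries. At an adjusted p under 0.05 in edgeR's quasi-likelihood test, with adjustment over all 15945 tested genes, 5 members rose and 11 fell, 16 of 40 or 40% of those tested. Across all tested genes 49.4% were called, 25.1% higher and 24.3% lower, so the members' share of calls was not above the background. Their median log2 fold change was -0.20, against 0.00 for all tested genes, and ranged between -2.71 and 1.54. The 3 BHLHE22 values lay wholly above the 3 vector values for 8 of the 40 tested members and wholly below them for 13. Some members with too few counts to be tested were also apart. HIST1H2AJ, HIST1H2AL, HIST1H2BL, HIST2H3A, HIST2H3C and HIST1H4K lay wholly above and HIST1H4D wholly below, so the lean to falls holds for tested members only. Across all tested genes the groups did not overlap for 60.5%, with 30.6% above and 29.9% below. In bulk RNA, fewer cells holding a transcript and less of it per cell cannot be told apart. With library sizes left unscaled the split turned to 11 higher and 7 lower, 61.1% of calls higher against 31.3%. All tested genes turned the same way, from 3996 higher and 3880 lower to 5128 higher and 2890 lower. That scaling moved the median of all tested genes by 0.15 on the log2 scale.

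**Figure D1:**
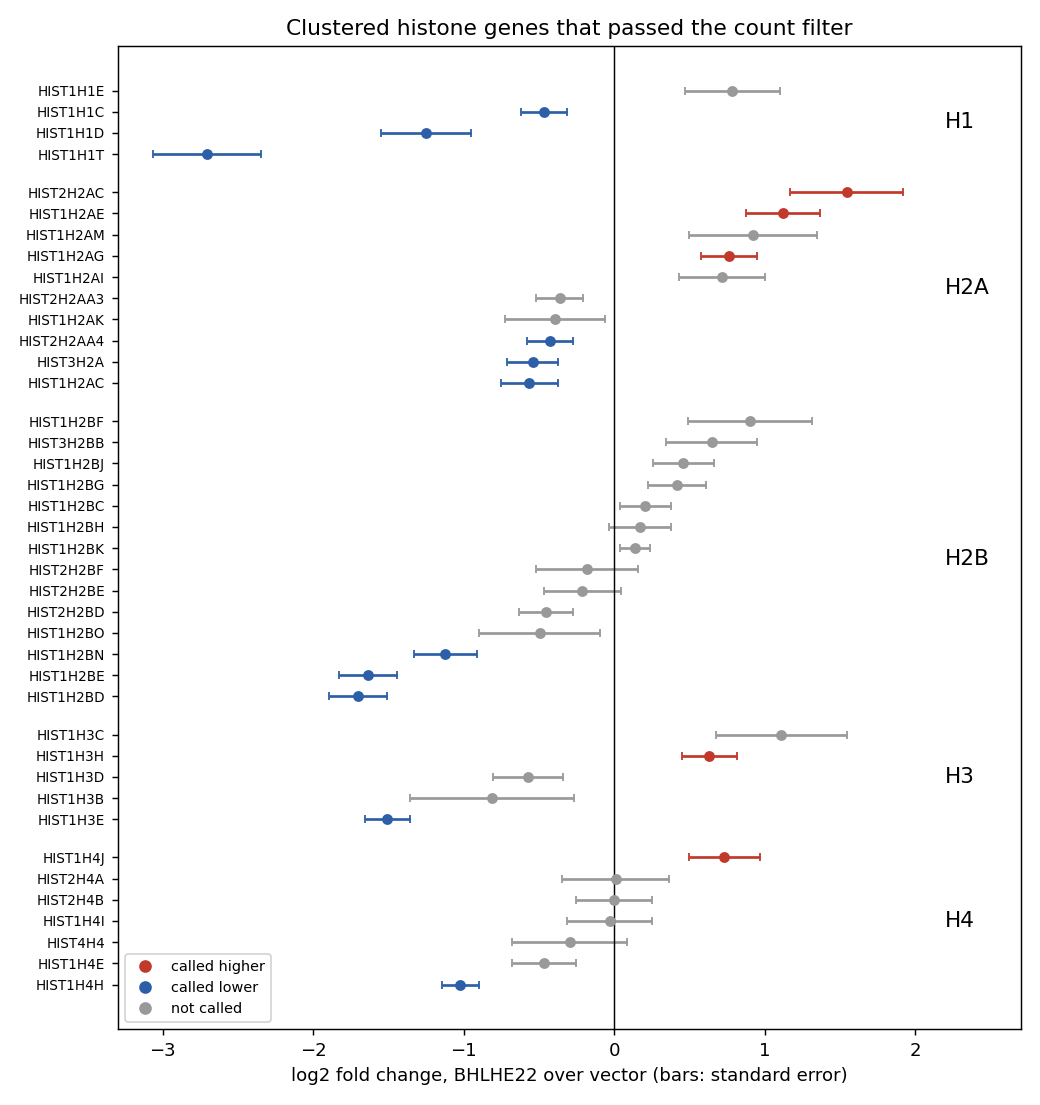
Log2 fold change (BHLHE22 over vector) of the 40 tested clustered histone genes, grouped by histone class, with the standard error as bars and called genes coloured. Each class holds members on both sides of 0, with HIST1H1T at -2.71 as the lowest point and HIST2H2AC at 1.54 as the highest.

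Linker histone H1 binds the DNA between nucleosomes. Of its 7 members 4 were tested, of which 3 fell and 0 rose. HIST1H1T, now H1-6, is the testis H1 of spermatocytes (chr6:26107419-26108136). It had 4, 5 and 5 counts in BHLHE22 libraries, against 28, 42 and 21 counts in vector libraries. That is 0.312, 0.359 and 0.300 CPM in BHLHE22 cells and 2.12, 2.86 and 1.48 CPM in vector cells. The groups lay far apart, and the log2 fold change was -2.71 ± 0.36 (SE, edgeR adjusted p = 0.000881). It was the largest fall among the 40 tested members, from few counts. HIST1H1D (H1.3), a somatic linker histone, had 1.48, 1.72 and 1.08 CPM in BHLHE22 cells, against 3.48, 4.35 and 2.32 CPM in vector cells. All BHLHE22 values were under the lowest vector value, and it fell by 1.25 on the log2 scale (SE 0.30, edgeR adjusted p = 0.0101).

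HIST1H1C (H1.2) supplied nearly all H1 counts. Its levels were 59.7, 49.2 and 42.1 CPM in BHLHE22 cells and 66.4, 80.1 and 61.8 CPM in vector cells. The groups were apart by little, with a log2 fold change of -0.47 ± 0.15 (SE, edgeR adjusted p = 0.0358). The call was lost without BHLHE22 replicate 2 or 3, without vector replicate 1 or 2, and with unscaled library sizes, where adjusted p reached 0.112 at most. HIST1H1E (H1.4) was the H1 gene with the opposite sign, at 1.17, 1.72 and 1.08 CPM in BHLHE22 cells and 0.983, 0.680 and 0.634 CPM in vector cells. Its log2 fold change of 0.79 did not pass (edgeR adjusted p = 0.0723). HIST1H1A and HIST1H1B, the H1.1 and H1.5 genes, were not tested, with sums of 0 and 0 counts over the BHLHE22 libraries and 1 and 2 over the vector libraries.

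H2A pairs with H2B in the nucleosome. Of 18 H2A members 10 were tested, 3 rose and 3 fell. HIST1H2AE (chr6:26216975-26217483) had 4.92, 6.03 and 3.78 CPM in BHLHE22 cells, against 1.74, 2.72 and 2.25 CPM in vector cells. Every BHLHE22 value was above every vector value, and the log2 fold change was 1.12 ± 0.25 (SE, edgeR adjusted p = 0.00745). HIST2H2AC (chr1:149886975-149887364) had 1.95, 1.72 and 1.02 CPM in BHLHE22 cells, against 0.605, 0.340 and 0.634 CPM in vector cells. This was the largest rise of the 40, at 1.54 ± 0.38 on the log2 scale (SE, edgeR adjusted p = 0.0112), from 66 counts in all BHLHE22 libraries and 22 in all vector libraries. HIST1H2AG, in the distal block, had 11.2, 9.83 and 7.44 CPM in BHLHE22 cells and 6.20, 5.51 and 5.07 CPM in vector cells. It rose by 0.76 (SE 0.19, edgeR adjusted p = 0.0114), again with no overlap.

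The H2A genes that fell each had more counts than any that rose. HIST1H2AC, the member with the most counts of all 74, had 73.2, 61.1 and 42.7 CPM in BHLHE22 cells, against 82.9, 95.7 and 82.5 CPM in vector cells. BHLHE22 replicate 3 was the lowest, the groups did not overlap, and the log2 fold change was -0.56 ± 0.19 (SE, edgeR adjusted p = 0.0409). HIST3H2A, on the long arm of chromosome 1, had 14.2, 11.4 and 9.12 CPM in BHLHE22 cells, against 16.5, 17.1 and 16.8 CPM in vector cells. Its log2 fold change was -0.54 ± 0.17 (SE, edgeR adjusted p = 0.0292). Both calls were lost under 6 of 13 alternatives each, unscaled library sizes and the omission of BHLHE22 replicate 2 or of any of the vector replicates among them, with adjusted p up to 0.128 for HIST1H2AC and 0.0842 for HIST3H2A. HIST3H2A was also lost without BHLHE22 replicate 3. The remaining call, HIST2H2AA4, was singled out after its values were seen, because it is the least firm: 27.2, 28.8 and 25.2 CPM in BHLHE22 cells, against 40.01, 40.4 and 28.5 CPM in vector cells, with a log2 fold change of -0.42 (edgeR adjusted p = 0.0492). It shares 97.1% of its 50-base words with other genes, its near-identical copy HIST2H2AA3 among them, so reads cannot be placed surely between the copies. Its call was lost under 8 of 13 alternatives, including the omission of each BHLHE22 replicate and of vector replicate 1 or 2 (adjusted p up to 0.154).

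H2B is the class with the most tested members, 14 of 19, and 3 of them fell and 0 rose. HIST1H2BD (chr6:26158146-26171349) was among the 5 members with most counts. It had 25.2, 22.5 and 21.7 CPM in BHLHE22 cells, against 74.4, 95.5 and 56.0 CPM in vector cells. The BHLHE22 libraries were close to each other and far under every vector library, at a log2 fold change of -1.70 ± 0.19 (SE, edgeR adjusted p = 0.000505). On the authors' FPKM scale, which divides by length, HIST1H2BD averaged 18.9 ± 1.51 in BHLHE22 cells and 55.4 ± 13.1 in vector cells (SD, n = 3 each).

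HIST1H2BE (chr6:26172059-26184655), its neighbour on the same strand, had 2.34, 2.87 and 2.46 CPM in BHLHE22 cells, against 7.56, 9.59 and 6.76 CPM in vector cells. It fell by 1.64 on the log2 scale (SE 0.19, edgeR adjusted p = 0.000533). HIST1H2BN, in the distal block, had 4.53, 3.52 and 6.12 CPM in BHLHE22 cells and 11.0, 10.5 and 9.51 CPM in vector cells. It fell by 1.12 (SE 0.21, edgeR adjusted p = 0.00344). Exons of HIST1H2BE overlap the antisense gene AL353759.1, and those of HIST1H2BN overlap HIST1H2AL on the same strand and HIST1H2AK on the other. Since neither the kit nor the counting is stated to keep strand, reads of these overlapping genes cannot be told apart.

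The H2B genes with the most counts over all libraries, HIST2H2BE and HIST1H2BK, did not pass the test. HIST2H2BE had 87.6, 66.1 and 43.1 CPM in BHLHE22 cells and 78.6, 84.9 and 64.1 CPM in vector cells. The groups overlapped, and the spread of its BHLHE22 libraries was wider than the difference (log2 fold change -0.21 ± 0.26 SE, edgeR adjusted p = 0.528). HIST1H2BK had 53.8, 51.9 and 50.1 CPM in BHLHE22 cells and 49.8, 50.1 and 41.6 CPM in vector cells, a log2 fold change of 0.14 that did not pass (edgeR adjusted p = 0.294). Per length, HIST1H2BK was at 143 ± 4.94 FPKM in BHLHE22 cells and 117 ± 9.71 FPKM in vector cells (SD, n = 3 each), above HIST1H2BD on the same scale. That ranking depends on length, which the FPKM imply to be 381 bases for HIST1H2BK and 1285 for HIST1H2BD. HIST1H2BK also shares 74.1% of its 50-base words with other genes.

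H3 and H4 form the core tetramer of the nucleosome. Of 14 H3 genes 5 were tested, with 1 higher and 1 lower. HIST1H3E (chr6:26224199-26227473) had 2.89, 3.30 and 3.60 CPM in BHLHE22 cells, against 9.68, 9.59 and 8.73 CPM in vector cells. Both groups were tight, and its log2 fold change of -1.51 ± 0.15 (SE) had the smallest edgeR adjusted p of the 40 members, 0.000301. HIST1H3H, in the distal block, had 9.60, 7.68 and 7.74 CPM in BHLHE22 cells and 4.99, 6.53 and 4.58 CPM in vector cells. It rose by 0.63 (SE 0.18, edgeR adjusted p = 0.0228), a call lost without BHLHE22 replicate 1 or without vector replicate 1 or 3 (adjusted p up to 0.0732).

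Of 16 H4 genes 7 were tested, again with 1 higher and 1 lower. HIST1H4H (chr6:26277609-26285638) is the H4 gene with the most counts. It had 18.6, 19.4 and 19.8 CPM in BHLHE22 cells, against 38.1, 44.9 and 34.4 CPM in vector cells. It fell by 1.02 on the log2 scale (SE 0.12, edgeR adjusted p = 0.000606). HIST1H4J had 2.73, 2.37 and 2.52 CPM in BHLHE22 cells and 1.97, 1.43 and 1.20 CPM in vector cells, a rise of 0.73 (SE 0.24, edgeR adjusted p = 0.0340). HIST1H4J shares 81.2% of its 50-base words with other genes. Its call was lost with DESeq2, without any of the BHLHE22 replicates, and without vector replicate 2 or 3 (adjusted p up to 0.119). The near-identical pair HIST2H4A and HIST2H4B had log2 fold changes of 0.0087 and -0.00067 and did not pass (edgeR adjusted p = 0.987 and 0.999).

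**Figure D2:**
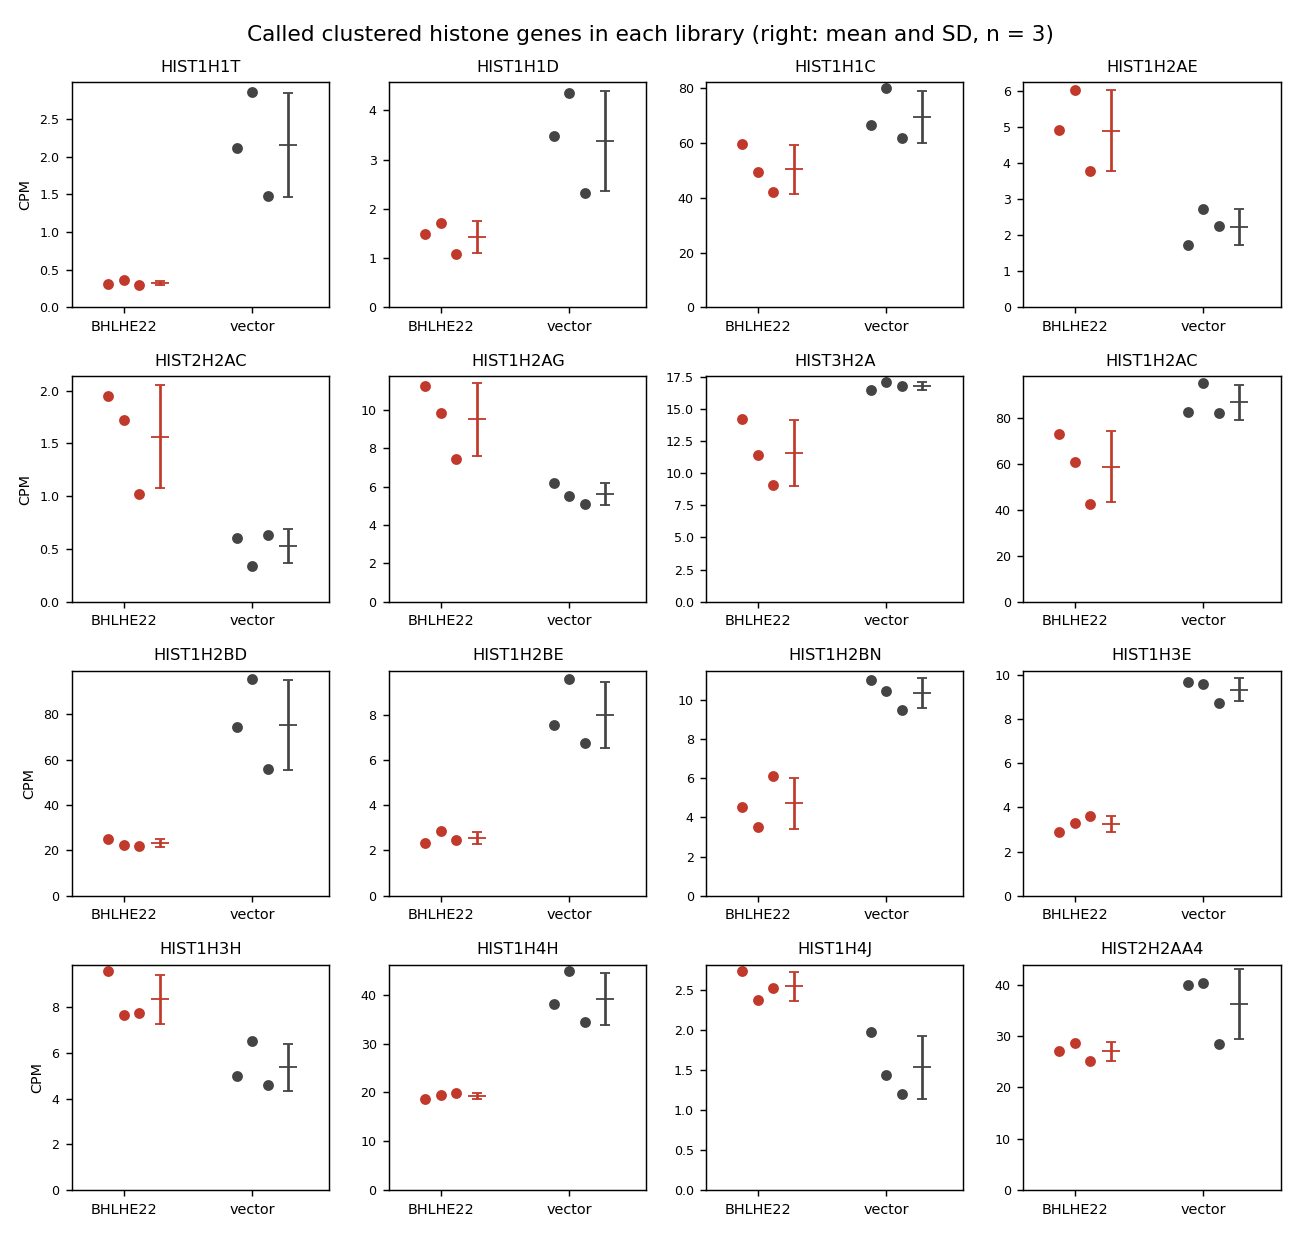
CPM of the 16 called clustered histone genes in each library, 1 gene a panel with an axis from 0, BHLHE22 libraries left of vector libraries and the mean and SD (n = 3) beside each group. HIST1H2BD lies between 21.7 and 25.2 CPM in BHLHE22 libraries and between 56.0 and 95.5 CPM in vector libraries, while HIST1H2AE lies between 3.78 and 6.03 CPM in BHLHE22 libraries and between 1.74 and 2.72 CPM in vector libraries.

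Of the 16 calls at an adjusted p under 0.05, 10 stood in all 13 refits (other scalings, tests, filters, the replicate block and omitted libraries): the rises of HIST1H2AG, HIST1H2AE and HIST2H2AC, and the falls of HIST1H1T, HIST1H1D, HIST1H2BD, HIST1H2BE, HIST1H2BN, HIST1H3E and HIST1H4H. The other 6 are those for which lost calls are given above. At a threshold of 0.01, 1 rise (HIST1H2AE) and 6 falls were left, and HIST1H2AG, HIST2H2AC and HIST1H1D of the 10 were lost.

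Within HIST1 the members are split by block. In the proximal block 18 members were tested, 1 rose and 8 fell, with a median log2 fold change of -0.51. In the distal block 11 were tested, 3 rose and 1 fell, with a median of 0.46. HIST2 had 1 rise and 1 fall among 8 tested, HIST3 had 1 fall among 2, and HIST4H4 did not pass. The shares called were 50% in the proximal and 36.4% in the distal block, against 49.4% of all tested genes. Of all tested genes 25.1% rose and 24.3% fell. The difference between blocks was not tested.

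**Figure D3:**
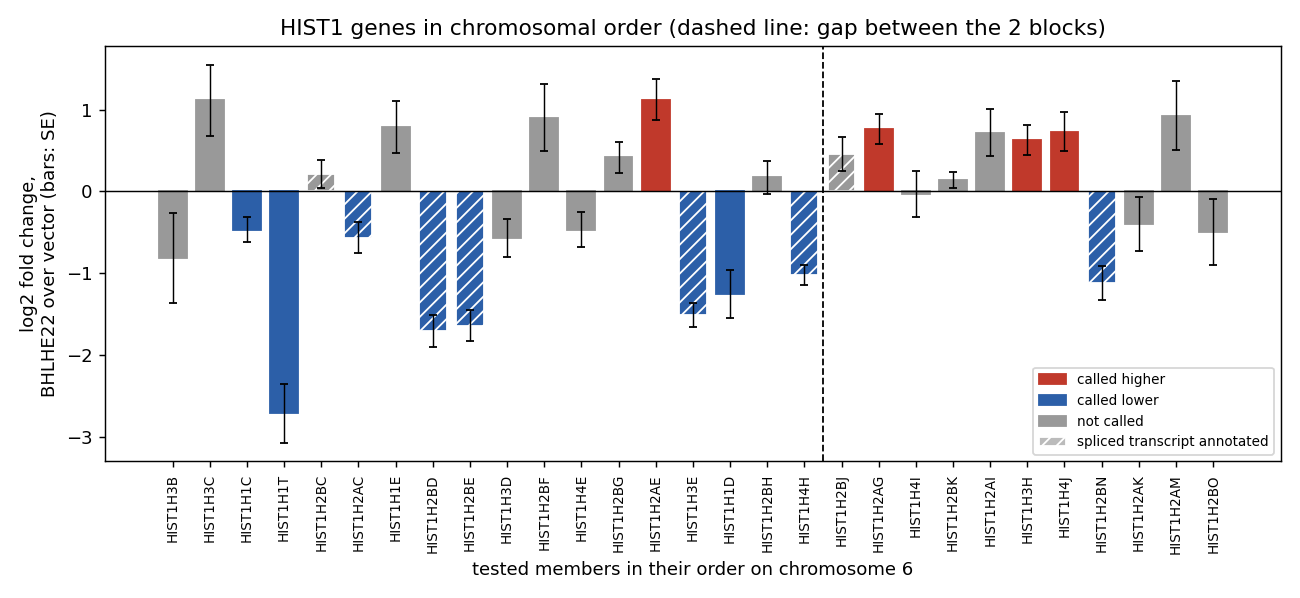
Log2 fold change (BHLHE22 over vector) of the tested HIST1 members in their order along chromosome 6, with the proximal block left and the distal block right, the standard error as whiskers and hatching for genes with an annotated spliced transcript. The proximal block holds 8 of the 9 HIST1 falls and the distal block 3 of the 4 HIST1 rises.

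A split by transcript structure was made after the values were seen, and its difference was not tested. Clustered histone genes classically have no introns, but GENCODE 29 annotates a spliced transcript for 12 of the tested members. Of these 12, 0 rose and 6 fell, so 50% were called, against 49.4% of all tested genes, where 25.1% rose and 24.3% fell. They had a median log2 fold change of -0.43. The fallen 6 were HIST1H2AC, HIST1H2BD, HIST1H2BE, HIST1H2BN, HIST1H3E and HIST1H4H. Of the 28 tested members without a spliced transcript, 5 rose and 5 fell (35.7% called), with a median of 0.05. Structure and position overlap: within the proximal block, 5 of 6 members with a spliced transcript fell, against 3 of 12 without, where 1 rose. HIST1H2BD has 2 annotated transcripts, of which 1 lacks the stem-loop. The transcripts of HIST1H3E run up to 1862 bases past the stem-loop and those of HIST1H4H up to 1655, but those of HIST1H2AG, which rose, run up to 1761. The gene-level counts do not separate these forms.

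Many H2A and H2B genes stand head to head on a shared promoter region. Among the members 11 such pairs have starts within 1000 bases, and in 6 both genes were tested. The ratio of H2A to H2B counts in a library does not depend on library scaling. For HIST1H2AE and HIST1H2BG, with starts 283 bases apart, it was 0.127, 0.191 and 0.158 in BHLHE22 libraries and 0.0801, 0.0995 and 0.106 in vector libraries. For HIST2H2AC and HIST2H2BE it was 0.0223, 0.0261 and 0.0237 in BHLHE22 libraries, against 0.00770, 0.00400 and 0.00989 in vector libraries. In both pairs the H2A share was higher in every BHLHE22 library.

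In the opposite direction, the ratio of HIST1H2AC to HIST1H2BC was 1.73, 1.89 and 1.61 in BHLHE22 libraries, against 2.71, 3.21 and 3.04 in vector libraries. That of HIST3H2A to HIST3H2BB was 2.33, 2.65 and 2.76 in BHLHE22 libraries, against 4.19, 6.63 and 7.71 in vector libraries. The log2 differences were 0.73, 1.83, -0.78 and -1.22 in the order given. Each of the 4 pairs reached the smallest p that an exact permutation test of 3 against 3 allows, 0.1 (2-sided; 0.15 adjusted over the 6 pairs). For HIST1H2AG with HIST1H2BJ and for HIST1H2AM with HIST1H2BO the groups overlapped. In none of the 6 pairs were both genes called.

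Summed over all 74 members, the level was 566, 492 and 407 CPM in BHLHE22 libraries, against 632, 692 and 539 CPM in vector libraries. The groups overlapped, since BHLHE22 replicate 1 was above vector replicate 3, and the mean log2 difference was -0.35 (2-sided exact permutation test, p = 0.2; the smallest possible is 0.1). The sums of H1, H2A, H3 and H4 were each lower in every BHLHE22 library, with log2 differences of -0.51, -0.37, -0.25 and -0.55 and exact p = 0.1. With unscaled library sizes the differences were -0.36, -0.22, -0.11 and -0.40, with exact p = 0.2, 0.3, 0.3 and 0.1, and that of all members was -0.21. Without BHLHE22 replicate 3 the difference was -0.23 for all members and -0.21 for H2A. The H2B sum was 296, 242 and 198 CPM in BHLHE22 libraries and 303, 334 and 250 CPM in vector libraries, with overlap (exact p = 0.2). Its log2 difference of -0.28 was -0.13 with unscaled sizes, -0.13 without BHLHE22 replicate 3, -0.42 without BHLHE22 replicate 1 and -0.19 without vector replicate 2. Without HIST1H4H the H4 difference was -0.05, and without HIST1H2AC the H2A difference was -0.15, so those sums rest largely on 1 gene each. Without their most abundant members, HIST1H1C and HIST1H3H, the differences were larger for H1 and H3, at -1.03 and -0.78. HIST1H3H is a gene that rose. HIST1H3E had 143 counts in BHLHE22 libraries and 393 in vector libraries, against H3 sums of 744 and 866. HIST1H2BD had 998 and 3184 counts in the same order, against H2B sums of 10460 and 12463. Each of these 2 genes thus differed by more counts than the sum of its class. Sums without them were not tested. The clustered histones made up 0.0505% of counts in BHLHE22 libraries and 0.0589% in vector libraries. The 5 genes with the most counts, HIST1H2AC, HIST2H2BE, HIST1H1C, HIST1H2BK and HIST1H2BD, held 51.0% of these counts in BHLHE22 libraries and 57.2% in vector libraries.

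**Figure D4:**
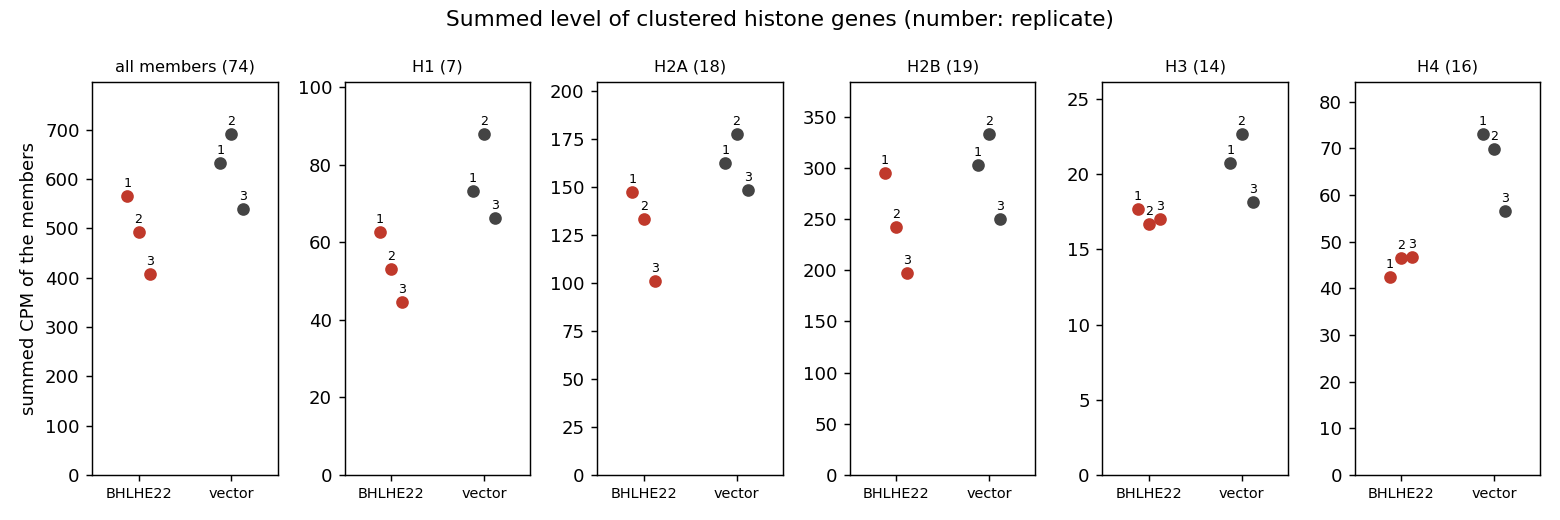
Summed CPM of all clustered histone genes and of each class per library, BHLHE22 libraries left of vector libraries, with the replicate number at each point. All members sum to 407 to 566 CPM in BHLHE22 libraries and to 539 to 692 CPM in vector libraries, so the groups overlap.

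Within each group, replicate 3 was often the lowest. BHLHE22 replicate 3 was the lowest of its group for 27 of the 40 tested members, against 37.5% of all tested genes, and vector replicate 3 for 31 of the 40, against 36.3%. RNAs that carry no poly(A) tail by their nature were set beside the histones. A list of 14 such RNAs, 4 of them at 0 in every library, summed to 33.6, 41.4 and 28.6 CPM in BHLHE22 libraries and to 66.3, 51.3 and 75.8 CPM in vector libraries. The log2 difference was -0.90 (2-sided exact permutation test, p = 0.1). Of 5 tested, RN7SL1 and RN7SL2, the RNA of the signal recognition particle, fell (log2 fold changes -0.86 and -1.02, edgeR adjusted p = 0.0130 and 0.00444) and 0 rose. RN7SL1 and RN7SL2 also carry most of the sum. RN7SK, RMRP and RPPH1 had log2 fold changes of -0.75, -0.87 and -0.85 and did not pass (edgeR adjusted p = 0.0623, 0.108 and 0.0773). Of all tested genes 49.4% were called and 24.3% fell, so the share called here was not above the background. The small nucleolar RNAs SNORA73B, at 0.526 CPM in BHLHE22 cells and 0.238 CPM in vector cells, and SNORD3A, at 0.230 CPM in BHLHE22 cells and 0.165 CPM in vector cells, were too low to be tested, with every BHLHE22 library above every vector library. Across all tested genes the groups did not overlap for 60.5%, with 30.6% above. The part of such RNA's capture in the histone result was not tested.

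The genes that mark S phase, when clustered histone mRNA normally accumulates, rose in full. All 19 of 19 tested rose in BHLHE22 cells, against 25.1% of all tested genes, with a median log2 fold change of 1.38. RRM2, a subunit of ribonucleotide reductase, had 239, 196 and 177 CPM in BHLHE22 cells, against 33.5, 30.6 and 43.3 CPM in vector cells. CCNE2, the cyclin E2 gene that acts with CDK2, had 11.8, 11.8 and 10.7 CPM in BHLHE22 cells, against 1.29, 0.816 and 1.55 CPM in vector cells. GINS2 and MCM5, parts of the replicative helicase, rose by 2.36 and 1.36 on the log2 scale (edgeR adjusted p = 0.000122 and 0.000175). The 40 tested clustered histones, at a median of -0.20, thus had no such common rise.

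Replacement histones, listed as genes of polyadenylated mRNA without a check of each gene's mRNA form, rose or did not pass. Of 12 tested, 8 rose and 0 fell, with a median log2 fold change of 0.67. That is 66.7% called, against 49.4% of all tested genes, where 25.1% rose. H2AFX, the variant phosphorylated at DNA breaks, had 119, 117 and 122 CPM in BHLHE22 cells, against 55.6, 46.0 and 55.6 CPM in vector cells. H2AFZ (H2A.Z), found at promoters, rose by 0.96, H2AFY2 (macroH2A2) by 1.29 and H3F3B, a gene of H3.3, by 0.61 (edgeR adjusted p = 0.000984, 0.000582 and 0.000978). H1F0, the H1.0 linker histone of resting cells, was named after its values were seen: at 1935 ± 367 CPM in BHLHE22 cells and 1142 ± 30.5 CPM in vector cells (SD, n = 3 each), this gene alone took more counts than the 74 members together.

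Of 42 genes for transcription, 3′ processing, turnover and chaperoning of histones, all tested, 20 rose and 6 fell, with a median log2 fold change of 0.38. That is 61.9% called, against 49.4% of all tested genes, where 25.1% rose and 24.3% fell. NASP, which keeps a store of free H3 and H4, had 106, 108 and 106 CPM in BHLHE22 cells and 56.8, 55.3 and 58.6 CPM in vector cells. ASF1A, which hands H3-H4 to the assembly factors, rose by 1.10, and MMS22L, which acts at replication forks, by 1.28 (edgeR adjusted p = 0.000169 and 0.000161). YY1, a transcription factor that also regulates histone genes, fell by 0.99 on the log2 scale, at 186, 179 and 190 CPM in BHLHE22 cells and 368, 385 and 349 CPM in vector cells (edgeR adjusted p = 0.000117).

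Among the factors that act on the clustered genes themselves, NPAT and SLBP did not pass and 3 of the U7 particle rose. Others of the list moved in both directions, as given below. NPAT had 27.8, 34.6 and 27.6 CPM in BHLHE22 cells and 34.4, 30.7 and 29.02 CPM in vector cells, a log2 fold change of -0.06 (edgeR adjusted p = 0.704). CDK2, which phosphorylates NPAT, had 64.1, 62.6 and 65.0 CPM in BHLHE22 cells, against 30.6, 35.8 and 37.4 CPM in vector cells. It rose by 0.89 on the log2 scale (edgeR adjusted p = 0.000498). SLBP had 37.2, 40.5 and 59.4 CPM in BHLHE22 cells, against 32.2, 34.8 and 33.7 CPM in vector cells. Its log2 fold change of 0.45 missed the threshold (edgeR adjusted p = 0.0669), with BHLHE22 replicate 3 well above the others. LSM10 and LSM11, of the U7 particle, which cuts the histone mRNA end, rose by 0.60 and 0.44, and ZNF473, its zinc finger partner, by 0.50 (edgeR adjusted p = 0.00638, 0.00662 and 0.0103). NPAT, CDK2, SLBP, LSM10, LSM11 and ZNF473 were named for their role and not by the rule of the smallest p. Also outside that rule, SYMPK, SRRT and ZCCHC6 fell (log2 fold changes -0.32, -0.61 and -0.38, edgeR adjusted p = 0.0324, 0.0101 and 0.0274). CPSF3, CSTF2 and NCBP1 rose (0.46, 0.83 and 0.78, edgeR adjusted p = 0.00834, 0.00147 and 0.00242). CASP8AP2, CPSF2, NCBP2, ERI1, ZCCHC11, UPF1 and MIF4GD did not pass.

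**Figure D5:**
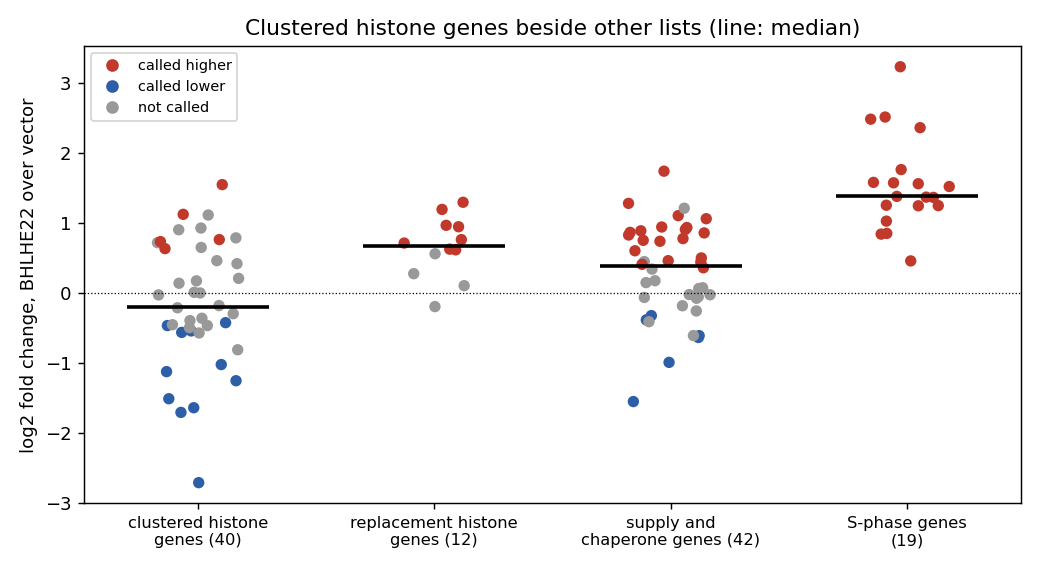
Log2 fold changes (BHLHE22 over vector) of the tested members of 4 groups: clustered histones, replacement histones, histone supply factors and S-phase genes, with called genes coloured and a line at each median. The medians are -0.20, 0.67, 0.38 and 1.38 in that order.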

How the data were processed

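Gene-level read counts and FPKM values came from a table deposited by the authors for 6 libraries, 3 with BHLHE22 lentivirus and 3 with vector (columns headed as control). Per the submitters' processing notes, CASAVA 1.8, HISAT2 2.1.0, StringTie 1.3.4b, edgeR and the builds GRCh38 and hg38 were used; the sources used here give no counting options, strand or RNA selection. Per the labels' protocols, TRIzol served to isolate RNA, and an NEBNext Ultra kit to build libraries. No source ties the libraries to separate cultures, so p-values measure only how these libraries vary, possibly for technical reasons.

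Counts were fitted whole with edgeR 4.0.16 in R 4.3.3 (quasi-likelihood, robust, TMM scaling, filterByExpr, 2-sided, Benjamini-Hochberg over 15945 genes). These genes held at least 99.8% of each library's counts. CPM are counts over the scaled library size; fold changes are BHLHE22 over vector. Deposited FPKM were used only to compare levels between genes. Gene structure, 50-base words shared with other genes and stem-loops came from GENCODE 29, and promoters from RefSeq, matched by the current symbol of the Ensembl ID.

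Named genes were, per class, the 4 or fewer called members of smallest p and the most abundant member, and up to 4 called genes per other list; HIST1H1E, HIST1H1A, HIST1H1B, HIST1H2BK, HIST2H2AA4, HIST2H4A and HIST2H4B, markers and the list genes said to be so are outside this rule. The members, lists and tests were chosen with earlier results of these data known. Alternatives were a replicate block, DESeq2 1.42.0 and its size factors, unscaled library sizes, limma-voom (limma 3.58.1), other filters, an adjusted p threshold of 0.01 and leaving out each library. The procedure was tested on simulated data.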

Additional observations from a re-analysis of the deposited data

How the results depend on the processing

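The 5 rises and 11 falls became 11 and 7 with unscaled library sizes, and 1 and 6 at an adjusted p threshold of 0.01. Unscaled sizes gave 5128 rises and 2890 falls over all tested genes, against 3996 and 3880 in the main fit. Leaving out 1 library gave 4 to 8 rises and 7 to 11 falls: 8 rises without BHLHE22 replicate 3, and 7 falls without BHLHE22 replicate 2, vector replicate 1 or vector replicate 2. DESeq2 gave 4 and 11, limma-voom 6 and 10, no filter beyond 1 count 7 and 9, and members sharing under 50% of their 50-base words, a restriction chosen after seeing the data, 4 and 10. With the replicate number as a block, 6 rose and 11 fell. Over all tested genes same-numbered libraries did not deviate together (correlations 0.00538, -0.0267 and 0.0105), so the block was not used; among the members, replicate 3 was the lowest of its group in 27 of 40 BHLHE22 and 31 of 40 vector cases. HIST2H2BE, not called, changed sign without BHLHE22 replicate 3 (log2 fold changes -0.47 to 0.025 over the omissions, adjusted p 0.919 at 0.025); the cause was not tested. The counts called for the S-phase, replacement and supply lists stayed within 1.5 times in every refit; at 0.01, added after seeing the data, supply gave 16 rises and 3 falls, replacement 7 and 0, and S-phase 18 and 0. With 3 libraries a group, an exact test of a sum or ratio cannot go below 0.1, and members with few counts, such as HIST1H1T, have the widest errors.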
